A study of Sesamum indicum with 6 samples.

Results

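The WUSCHEL-related homeobox (WOX) genes and the JAGGED-like zinc finger genes were followed in young leaves of sesame (Sesamum indicum) seedlings that differ at a leaf polarity locus. The 9 genes were chosen by the product names in the deposited annotation, out of 20661 annotated genes, and comprise 7 WOX genes and 2 JAGGED-like genes. Leaf tissue was taken from seedlings 17 days old, raised in trays under 12 h of light, with a daytime temperature of 28 °C and 22 °C at night. The plants were recombinant inbred lines, which are nearly homozygous mosaics of their parents, and the labels name no other treatment. The SiCD_A group was homozygous for the SiCD-A allele, which carries wild-type KAN1, and the SiCD_B group was homozygous for the SiCD-B allele, which carries the mutant kan1, both on linkage group 8. Each group held 19 plants and is represented by 3 pools, each of which mixed equal amounts of RNA from 9 plants drawn at random. Filling 3 pools takes 27 places, 8 more than there are plants, so pools of a group share plants, and the p-values below measure only the spread between such pools.

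WOX proteins are homeodomain transcription factors that keep cells in a growing, undifferentiated state, and in Arabidopsis most of those studied in the shoot repress their targets by recruiting TOPLESS co-repressors. In Arabidopsis leaves, WOX1 and the WOX3 gene PRESSED FLOWER are active in the middle zone and margin between the upper and lower faces, where they drive the blade to widen, and KANADI factors of the lower face restrict that zone. JAGGED is a zinc finger factor that promotes cell division and growth in leaves and petals of Arabidopsis. WOX4 is known there for maintaining the vascular cambium, and WOX8 for patterning the early embryo.

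The libraries held 56123250 to 82165322 counts per pool. SiCD_A pool 3 was the shallowest and stood apart from the other SiCD_A pools on the principal component that held 13.7% of the variance, after the one that separated the groups with 67.5%. The transcript of KAN1 (LOC105167765, linkage group 8) was higher in the mutant-allele pools, at 22.7 ± 2.30 against 54.4 ± 1.88 CPM (SD, n = 3 pools), and the labels give no sequence change against which this level could check them. Photosynthesis genes, which mark leaf tissue, summed to 29064 to 42685 CPM per pool. CPM stands for counts scaled to a library of 1000000 counts, here with TMM factors. Levels of different genes are not compared with each other, because coding lengths were not used here. A gene was called when its adjusted p in edgeR's quasi-likelihood test was under 0.05, with Benjamini-Hochberg adjustment over the 21009 genes tested.

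Of the 9 genes, 6 rose in SiCD_B, 1 fell and 2 did not pass the test. The largest rises were in a JAGGED-like gene, 5.55-fold, in WOX1, 3.03-fold, and in WOX1-like, 2.25-fold. The other gene named JAGGED-like, a WOX3-like gene and one of the WOX4 genes rose by 1.34-fold to 1.68-fold, and WOX8 fell slightly. All 9 genes were tested, and 0 of them lie on linkage group 8, where the allele is. Among all genes tested, 30.6% were called, 16.5% higher and 14.1% lower in SiCD_B, and 1.26% were called and at least 2-fold higher. Of the WOX and JAGGED-like genes, 77.8% were called, and 3 were both called and at least 2-fold higher. The median log2 fold change of the 9 genes was 0.75, beside 0.01 over all genes. Scaled by library size alone, 4515 genes were called higher and 2169 lower, against 3462 and 2971 with TMM factors, and without SiCD_B pool 2 the calls over all genes fell from 6433 to 3919. Under each of these settings the same 6 genes were called higher.

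**Figure D1:**
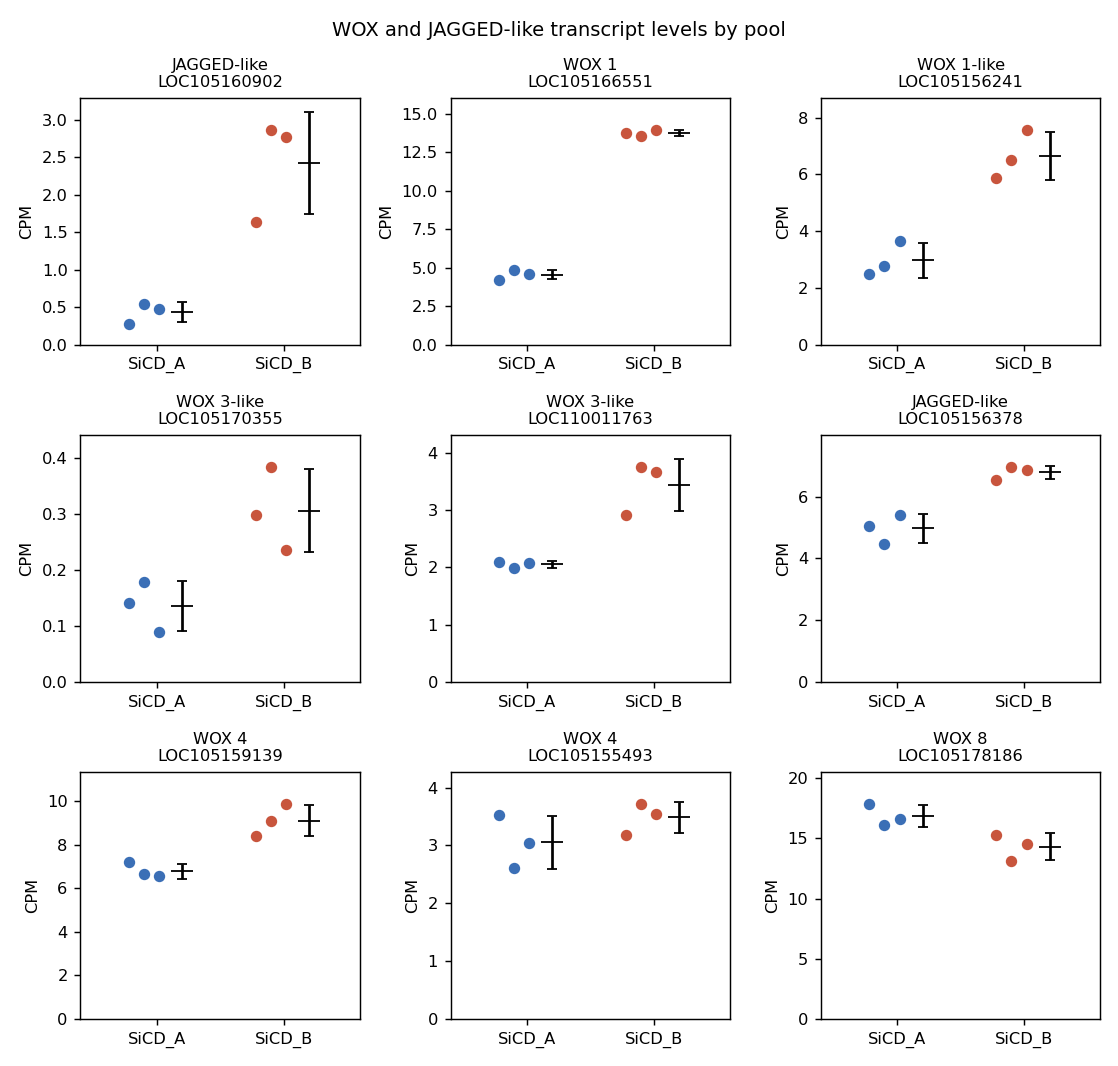
Level of each of the 9 genes in CPM (vertical axes, each starting at 0) in the 3 SiCD_A pools (blue) and the 3 SiCD_B pools (red), with the group mean and SD in black. The SiCD_B pools of WOX1 sit between 13.5 and 13.9 CPM, all above the SiCD_A pools at 4.22 to 4.84, while the pools of the WOX4 gene LOC105155493 overlap.

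WOX1 was examined first among the blade genes. WOX1 (LOC105166551, linkage group 1, coding segment 13967040 to 13967226 on the plus strand) measured 4.22, 4.84 and 4.56 CPM in the SiCD_A pools and 13.8, 13.5 and 13.9 CPM in the SiCD_B pools. The groups were far apart and each was tight, so that the gene had the 10th smallest p of all genes tested. Its log2 fold change was 1.60 (SE 0.08, 95% interval 1.41 to 1.78, edgeR adjusted p = 2.35e-05). WOX1-like (LOC105156241, linkage group 2, coding segment 15181663 to 15181864 on the plus strand) measured 2.49, 2.77 and 3.66 CPM in SiCD_A and 5.89, 6.50 and 7.56 CPM in SiCD_B. Every SiCD_B pool was above every SiCD_A pool, and within each group the pools were more spread out than those of WOX1. WOX1-like changed by 1.17 on the log2 scale (SE 0.16, 95% interval 0.80 to 1.53, edgeR adjusted p = 0.00114).

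The number of WOX1 reads per WOX1-like read, which needs no library scaling, was 1.69, 1.75 and 1.25 in the SiCD_A pools and 2.34, 2.08 and 1.84 in the SiCD_B pools. The 2 groups did not overlap, and the mean log2 ratio differed by 0.43. The two-sided exact permutation p was 0.1, the smallest that 3 pools against 3 allow (0.125 adjusted over 5 pairs of genes). Reads from stretches that these paralogs may share cannot be told apart in the counts.

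The WOX3-like genes are named for the margin gene that acts beside WOX1. LOC110011763 (linkage group 1, coding segment 9234850 to 9235090 on the plus strand) measured 2.08, 1.99 and 2.08 CPM in SiCD_A and 2.90, 3.75 and 3.66 CPM in SiCD_B. The SiCD_A pools were nearly equal, and SiCD_B pool 1 was the lowest of its group but above all of them. Its log2 fold change was 0.75 (SE 0.14, edgeR adjusted p = 0.00547). Reads of WOX1 per read of this gene went from 2.22 ± 0.205 to 4.06 ± 0.602 (SD, n = 3 pools), a 1.82-fold change with no overlap between groups (two-sided exact permutation p = 0.1, adjusted 0.125).

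A second WOX3-like gene, LOC105170355 (linkage group 9, coding segment 2707025 to 2707186 on the plus strand), is marked as a partial model in the deposited annotation and was close to the limit of detection. It had 10, 13 and 5 counts in the SiCD_A pools and 23, 32 and 18 counts in the SiCD_B pools. The groups did not overlap, but counts this low gave a wide interval, and the gene did not pass. Its log2 fold change was 1.14 (SE 0.41, 95% interval 0.20 to 2.07, edgeR adjusted p = 0.0671). Its interval spans the log2 fold changes of WOX1, WOX1-like and the other WOX3-like gene.

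The JAGGED-like genes moved by very different amounts. LOC105160902 (linkage group 1, coding segment 9972820 to 9972869 on the minus strand) had 20, 40 and 27 counts in SiCD_A and 127, 239 and 211 counts in SiCD_B. In CPM these are 0.282, 0.548 and 0.479 against 1.64, 2.86 and 2.76. The lowest SiCD_B pool, pool 1, was about as far above the SiCD_A pools as it was below the other SiCD_B pools. With a log2 fold change of 2.47 (SE 0.31, 95% interval 1.77 to 3.17, edgeR adjusted p = 0.000719) it had the 29th largest value of all genes tested.

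LOC105156378, the other JAGGED-like gene (linkage group 2, coding segment from 16043550 on the minus strand), measured 5.05, 4.48 and 5.40 CPM in SiCD_A and 6.53, 6.95 and 6.87 CPM in SiCD_B. Its groups did not overlap either, and the shift was smaller, with a log2 fold change of 0.45 (SE 0.10, edgeR adjusted p = 0.0110). Per read of LOC105156378, the reads of LOC105160902 rose from 0.0557, 0.122 and 0.0888 in the SiCD_A pools to 0.251, 0.411 and 0.403 in the SiCD_B pools. That is a 4.10-fold change in the balance of the pair, again with an exact permutation p at the design's limit (two-sided p = 0.1, adjusted 0.125). The summed level of both was 5.41 ± 0.430 CPM (SD, n = 3) in SiCD_A and 9.21 ± 0.900 CPM in SiCD_B.

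**Figure D2:**
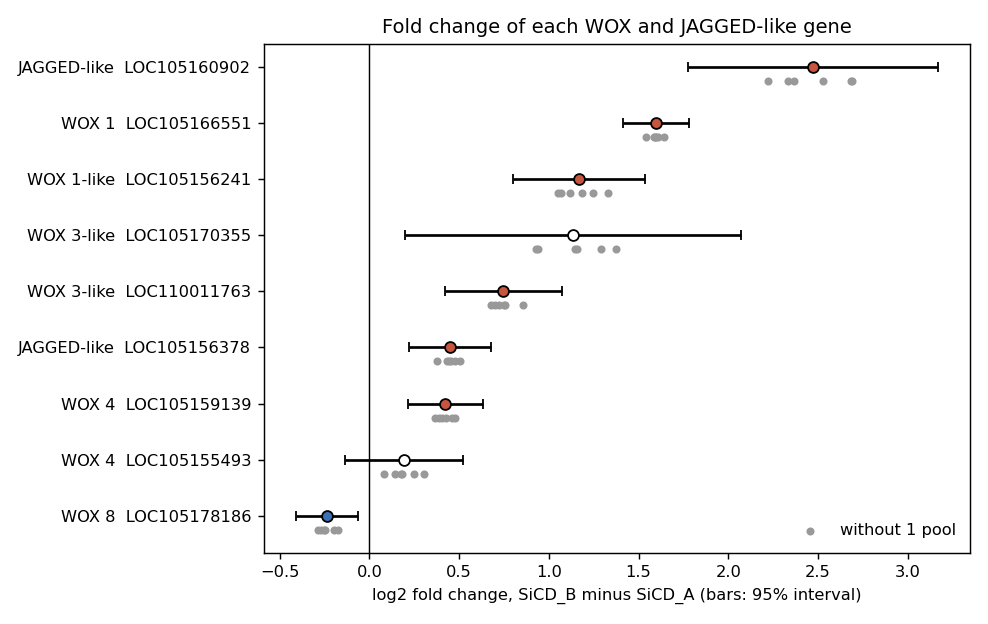
Log2 fold change of each gene, SiCD_B minus SiCD_A (horizontal axis), with its 95% interval, filled red where called higher, blue where called lower and open where not called. Grey points are the values with 1 pool left out, and those of WOX1 stay between 1.54 and 1.64 over all settings tried.

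The genes named WOX4 and WOX8 changed less than WOX1 and WOX1-like. The larger WOX4 change was about that of the JAGGED-like gene LOC105156378 (log2 fold change 0.45). The WOX4 gene LOC105159139 (linkage group 3, coding segment 21851147 to 21851362 on the minus strand) measured 7.19, 6.66 and 6.55 CPM in SiCD_A and 8.40, 9.10 and 9.87 CPM in SiCD_B. The groups were separate but close, with a log2 fold change of 0.42 (SE 0.09, edgeR adjusted p = 0.00905). The other WOX4 gene, LOC105155493 (linkage group 2, coding segment 6568427 to 6568678 on the minus strand), measured 3.52, 2.60 and 3.04 CPM in SiCD_A and 3.19, 3.71 and 3.55 CPM in SiCD_B. Here the groups overlapped, since SiCD_A pool 1 lay above SiCD_B pool 1. Its log2 fold change was 0.19 (95% interval -0.14 to 0.52, edgeR adjusted p = 0.349), an interval that also holds the value of the first WOX4 gene. The ratio of reads between the WOX4 genes did not separate the groups (two-sided exact permutation p = 0.2, adjusted 0.2).

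WOX8 (LOC105178186, linkage group 15, coding segment 7638846 to 7639041 on the minus strand) went the other way. It measured 17.8, 16.1 and 16.6 CPM in the SiCD_A pools and 15.3, 13.1 and 14.6 CPM in the SiCD_B pools. The groups did not overlap, but less than 1 CPM lay between the lowest SiCD_A pool and the highest SiCD_B pool. Its log2 fold change was -0.24 (SE 0.08, edgeR adjusted p = 0.0434), a call at the edge of the threshold. The edgeR call was lost when pool 1, 2 or 3 of SiCD_A was left out (adjusted p = 0.138, 0.0644 and 0.0508) and when pool 2 or 3 of SiCD_B was left out (0.144 and 0.0905). With library size alone it was lost as well (edgeR adjusted p = 0.0841). Reads of WOX1 per read of WOX8 went from 0.270 ± 0.0316 to 0.964 ± 0.0666 (SD, n = 3 pools), a 3.58-fold change (two-sided exact permutation p = 0.1, adjusted 0.125).

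Summed over the 7 WOX genes, the level was 37.5, 35.2 and 36.6 CPM in SiCD_A and 49.7, 50.1 and 53.4 CPM in SiCD_B. Every SiCD_B sum was above every SiCD_A sum, and the sums were not tested. All SiCD_B pools were above all SiCD_A pools for 7 genes, as for 25.8% of all genes, and below them for 1 gene, as for 22.6% of all genes. In the authors' deposited table, 7 of the 9 genes had an adjusted p under 0.05, and these were the same 7 that edgeR called. The authors' deposited table gives log2 fold changes of 1.59 for WOX1 and 2.47 for LOC105160902.

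In position, 3 of the genes lie on linkage group 1, 3 on linkage group 2 and 1 each on linkage groups 3, 9 and 15. The JAGGED-like gene LOC105160902 and the WOX3-like gene LOC110011763 are 0.738 Mb apart on linkage group 1. Of the 85 other tested genes between them, 12 were called higher and 14 lower, a share near the 30.6% called over all genes. WOX1-like and LOC105156378 are 0.862 Mb apart on linkage group 2. Of the 76 tested genes between them, 11 were called higher and 17 lower, beside 16.5% higher and 14.1% lower among all genes. WOX8 lies 0.225 Mb from KAN1-like (LOC105178203), whose counts went from 2, 11 and 6 in SiCD_A to 195, 172 and 182 in SiCD_B. Of the 9 tested genes between WOX8 and KAN1-like, 0 were called higher and 1 lower, beside 30.6% called over all genes. By the RefSeq gene positions of S_indicum_v1.0, 0 of the 9 WOX and JAGGED-like genes overlap another gene.

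Blade outgrowth and cell division go together in a young leaf, so the level of dividing-cell markers was set beside these genes. The markers of dividing cells were genes such as histones H3.2 and H4, mitotic cyclins and replication licensing factors. Of 48 tested, 40 were called higher and 0 lower, beside 16.5% higher and 14.1% lower among all genes. Their median log2 fold change was 0.60. Their summed level was 1810 to 2201 CPM in SiCD_A and 2881 to 3439 CPM in SiCD_B, 1.55-fold higher on average. The largest part of the sum was the licensing factor MCM5 (LOC105162378), which was not called and varied between pools. It measured 288, 351 and 253 CPM in SiCD_A and 257, 500 and 446 CPM in SiCD_B. In bulk tissue, more cells of a type and more RNA per cell cannot be told apart.

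Per 1000 CPM of these markers, WOX1 measured 2.03, 2.20 and 2.52 CPM in the SiCD_A pools and 4.78, 3.94 and 4.45 CPM in the SiCD_B pools. The groups stayed apart on this scale too, 1.95-fold on average. The JAGGED-like gene LOC105160902 also stayed apart, at 0.135, 0.249 and 0.265 against 0.569, 0.832 and 0.881 per 1000 CPM of markers, 3.52-fold. For WOX1-like the groups overlapped on this scale, at 1.49 ± 0.460 against 2.11 ± 0.268 (SD, n = 3), through SiCD_A pool 3.

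The genes with smaller rises did not keep them on the marker scale. The WOX3-like gene LOC110011763 was at 1.02 ± 0.124 and 1.09 ± 0.0787 per 1000 CPM of markers, and its pools overlapped. Overlap was also seen for the JAGGED-like gene LOC105156378, at 2.48 ± 0.476 against 2.16 ± 0.125, and for the WOX4 gene LOC105159139, at 3.37 ± 0.307 against 2.90 ± 0.251. WOX8 went from 8.36 ± 0.946 to 4.59 ± 0.751 on this scale without overlap, and the WOX4 gene LOC105155493 went from 1.52 ± 0.289 to 1.11 ± 0.0266. Since the marker sum was 1.55-fold higher in SiCD_B, a gene of unchanged CPM also falls on this scale. In CPM, LOC105155493 had a log2 fold change of 0.19 and was not called. The scarce WOX3-like gene LOC105170355 overlapped, at 0.0658 ± 0.0160 against 0.0965 ± 0.0189. These ratios describe the pools and were not tested.

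**Figure D3:**
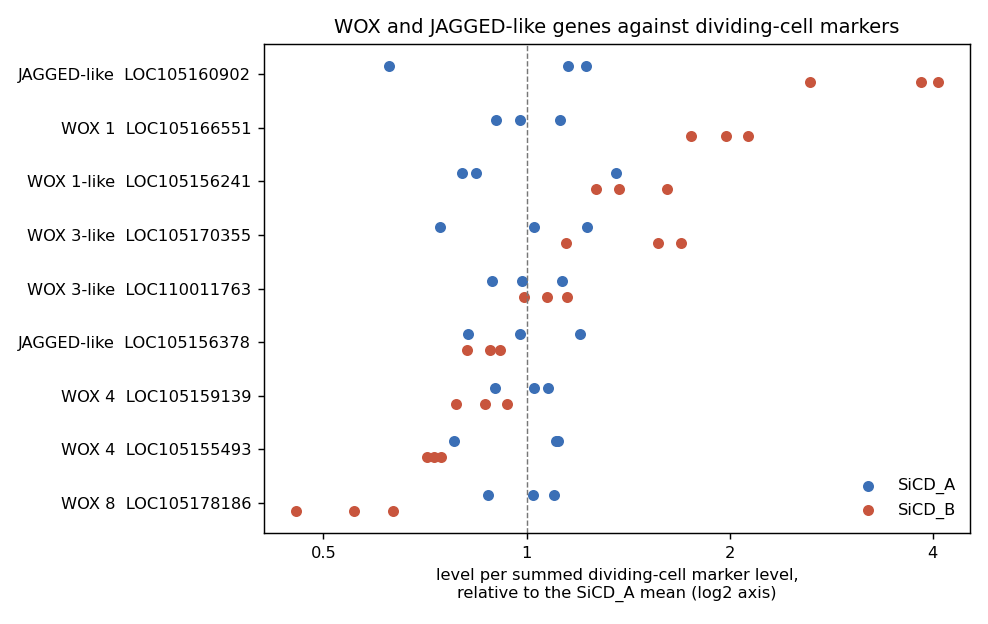
Level of each gene per summed level of the dividing-cell markers, relative to the SiCD_A mean (horizontal log2 axis), for the SiCD_A pools (blue) and SiCD_B pools (red). WOX1 and the JAGGED-like gene LOC105160902 keep the SiCD_B pools to the right of all SiCD_A pools, the groups of 5 genes overlap, and WOX8 and the WOX4 gene LOC105155493 lie to the left. A gene of unchanged CPM would also lie to the left, because the marker sum was higher in SiCD_B.

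Markers of the shoot apical meristem, whose tissue holds other WOX activity, were at low levels. Of 9 tested markers, 4 were called higher and 0 lower, beside 16.5% higher and 14.1% lower among all genes. All 4 are of the LIGHT-DEPENDENT SHORT HYPOCOTYLS type, a family active at organ boundaries in Arabidopsis, and 8 of the 9 had under 1 CPM. The only tested marker outside this family, CUP-SHAPED COTYLEDON 3 (LOC105163427), was not called and went the other way. It had 16, 5 and 13 counts in SiCD_A and 14, 4 and 1 counts in SiCD_B (log2 fold change -1.08). The median log2 fold change of the 9 markers was 1.02. Their summed level was 2.11 to 3.30 CPM in SiCD_A and 4.94 to 5.79 CPM in SiCD_B. The KNOX genes named SBH1, meristem genes that were added after the lists had been examined, varied between pools of a group. LOC105168004 had 0, 0 and 8 counts in SiCD_A and 41, 33 and 2 counts in SiCD_B, and LOC105175299 had 0, 0 and 10 against 39, 28 and 3.

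Of the floral markers, 4 of 10 were called higher and 0 lower, beside 16.5% higher and 14.1% lower among all genes. Their sums were 107 to 117 CPM in SiCD_A and 136 to 145 CPM in SiCD_B and rest mostly on APETALA 2 genes. Those called were 2 APETALA 2 genes, SEPALLATA 1-like (LOC105180283, 3.35-fold) and APETALA 1 A-like (LOC105180307, 1.79-fold). Of the root markers, 2 of 9 were called higher and 0 lower, both SHORT-ROOT genes, beside 16.5% higher and 14.1% lower among all genes. The root sums were 170 to 173 CPM in SiCD_A and 172 to 174 CPM in SiCD_B. They rest mostly on ROOT HAIR DEFECTIVE 3 genes, such as LOC105163481 at 112 and 108 CPM, while each casparian strip gene was under 1 CPM. Of 35 photosynthesis genes, 1 was called higher and 3 lower, beside 16.5% higher and 14.1% lower among all genes. Without SiCD_A pool 3 there were 25 lower, against 1 without SiCD_B pool 1 and 0 without any other single pool. The part that tissue makeup or leaf stage had in the WOX and JAGGED-like differences was not tested.

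Genes known to work with WOX and JAGGED proteins were then counted in 6 lists, chosen by product name. Of 44 tested genes, 15 were called higher and 4 lower, beside 16.5% higher and 14.1% lower among all genes. The median log2 fold change was 0.06, beside 0.01 over all genes. Of 10 genes for TOPLESS, LEUNIG and SEUSS co-repressors, 3 were called higher and 0 lower, a share near the 30.6% called over all genes, and the median was 0.03. Topless-related 4 (LOC105158374) rose from 7.71 ± 0.488 to 11.2 ± 0.147 CPM (SD, n = 3), a LEUNIG-like gene (LOC105168316) from 1.57 ± 0.348 to 2.47 ± 0.417 CPM, and LEUNIG (LOC105164816) by only 0.12 on the log2 scale. TOPLESS itself (LOC105158348) was lower in SiCD_B without overlap but not called, at 308 ± 17.1 against 277 ± 16.7 CPM (edgeR adjusted p = 0.0796). With pool number as a block, 1 co-repressor was called lower. Only 1 co-repressor was called without pool 1 or 3 of SiCD_A, or without pool 2 or 3 of SiCD_B.

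CLE peptides and their CLAVATA-type receptors limit WUSCHEL in the Arabidopsis shoot meristem. Of 14 such genes, 4 were called higher and 0 lower, a share near the 30.6% called over all genes, with a median of 0.08. Only 2 were called without SiCD_A pool 2 or SiCD_B pool 3. The gene of the TDIF peptide (LOC105163512), which raises WOX4 in the Arabidopsis vasculature, went from 0.926 ± 0.0671 to 1.52 ± 0.148 CPM (SD, n = 3; log2 fold change 0.71, edgeR adjusted p = 0.0190). The receptor kinase genes BAM1 (LOC105177860) and BAM3 (LOC105172530) rose by 0.43 and 0.32 on the log2 scale. Another gene of each name was not called, BAM1 LOC105158564 at 0.20 and BAM3 LOC105169090 at 0.05. Of 5 scarecrow-like genes of the type of HAIRY MERISTEM, a partner of WUSCHEL and WOX4 in Arabidopsis, 1 was called, scarecrow-like 22 (LOC105155837), at 0.21 (SE 0.04). That share too was not above the 30.6% called over all genes.

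**Figure D4:**
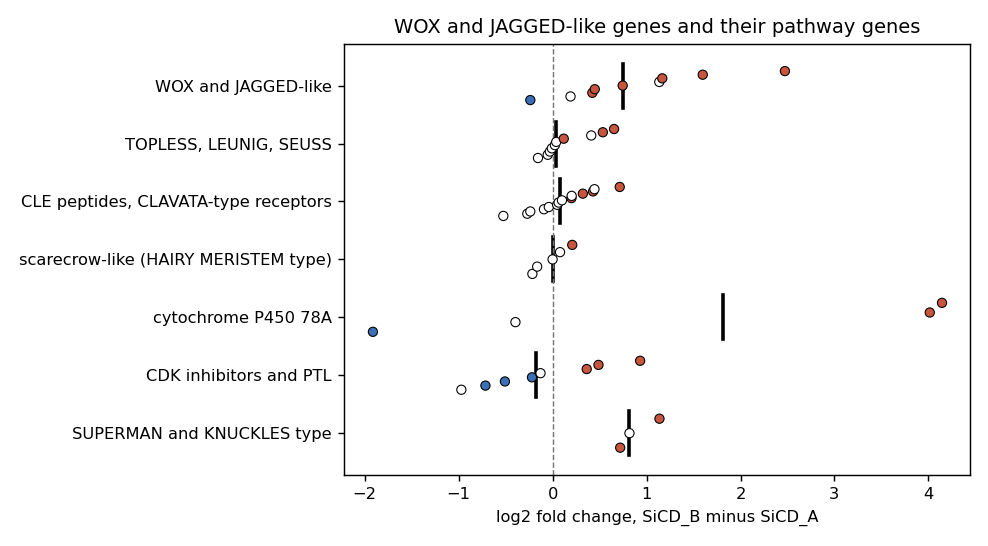
Log2 fold change, SiCD_B minus SiCD_A (horizontal axis), of each tested gene in the 6 lists and of the WOX and JAGGED-like genes, red where called higher, blue where called lower and open where not called, with the list median as a bar. The WOX and JAGGED-like median is 0.75, the co-repressor median is 0.03, and the P450 genes of the 78A type lie far apart in both directions.

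Cytochrome P450 genes of the 78A type include KLUH (CYP78A5), which promotes organ growth in Arabidopsis. All 4 tested genes were under 1 CPM on average, and they split. Of these, 2 were called higher and 1 lower, beside 16.5% higher and 14.1% lower among all genes. A CYP78A3-like gene (LOC105174473) rose from 0.0821 ± 0.0357 to 1.32 ± 0.336 CPM (SD, n = 3; log2 fold change 4.01, SE 0.39). A CYP78A7-like gene (LOC105171266) had 0, 1 and 5 counts in SiCD_A against 52, 42 and 40 counts in SiCD_B. CYP78A5 itself (LOC105168878) fell from 0.590 ± 0.0763 to 0.153 ± 0.0768 CPM (log2 fold change -1.91, edgeR adjusted p = 0.00702).

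Cyclin-dependent kinase inhibitors slow the cell cycle, and JAGGED represses some of them in Arabidopsis. With PTL, a trihelix factor that restrains growth between floral organs, 8 such genes were tested. Of these, 3 were called higher and 3 lower, beside 16.5% higher and 14.1% lower among all genes. PTL (LOC105174112) was among those called higher, with a log2 fold change of 0.93 (edgeR adjusted p = 0.0235). Inhibitor 1 (LOC105177633) fell from 109.6 ± 5.59 to 77.1 ± 10.8 CPM (SD, n = 3), while inhibitor 4 (LOC105165725) rose from 7.48 ± 0.361 to 10.5 ± 0.550 CPM and inhibitor 3 (LOC105163521) from 11.7 ± 0.673 to 14.98 ± 0.416 CPM. The inhibitor 7 genes LOC105159793 and LOC105172727 were called lower, at -0.22 and -0.71 on the log2 scale. Another inhibitor 3 gene (LOC105171870), at -0.97, was not called. Only 1 inhibitor was called lower without pool 1 or 2 of SiCD_A, or without pool 2 or 3 of SiCD_B. Among 3 zinc finger relatives of JAGGED, 2 were called higher, beside 16.5% of all genes. These were SUPERMAN (LOC105155947), which sets a boundary inside flowers, from 4.89 ± 0.0254 to 8.04 ± 0.227 CPM, and KNUCKLES-like (LOC110012185), named for a repressor of WUSCHEL, from 0.702 ± 0.0599 to 1.54 ± 0.125 CPM. SUPERMAN-like (LOC105165160) had a log2 fold change of 0.82 (edgeR adjusted p = 0.132).

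The genes whose pattern over the 6 pools was most like that of WOX1 or of the JAGGED-like gene were sought among 4984 other called genes with an informative product name, by the Euclidean distance between centred log2 CPM profiles. Nearest to WOX1 were an osmotin-like gene (LOC105164367, distance 0.149), SODIUM POTASSIUM ROOT DEFECTIVE 2 (LOC105169203, 0.251), arabinogalactan protein 31-like (LOC105175547, 0.298), the trihelix factor GT-4 (LOC105175848, 0.314) and squamosa promoter-binding-like 7 (LOC105170831, 0.318). Nearest to the JAGGED-like gene LOC105160902 were myb-like Q (LOC105160073, distance 0.277), growth-regulating factor 1 (LOC105173671, 0.326), AINTEGUMENTA (LOC105159085, 0.353), indole-3-acetate O-methyltransferase 1 (LOC105174912, 0.370) and again squamosa promoter-binding-like 7 (0.375). Because the distance includes the difference between groups, it favours genes with fold changes like those of WOX1 or the JAGGED-like gene. The genes nearest to WOX1 had log2 fold changes of 1.44 to 1.68, beside its own 1.60. Those nearest to the JAGGED-like gene ranged from 1.47 to 2.98, beside its own 2.47. The 0.5 CPM added before taking logs lessens the rise of a gene this scarce. Well-expressed genes with smaller rises can therefore come out near it. Among these, growth-regulating factor 1 and AINTEGUMENTA, which promote organ growth, had log2 fold changes of 1.47 and 1.76.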

How the data were processed

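Libraries were made with a TruSeq kit version 2 and read as pairs of 100 bases, per the labels' protocols. Per the submitters' processing notes, the tools included DESeq2, HTSeq, SAMtools, STAR, Trim Galore and FastQC 0.11.4. No genome build is given in the sources used here. For each of 25762 genes and 6 pools, the deposited table holds raw counts of reads. The deposited normalized signal, counts scaled per pool by the authors per the file headers, was not tested. The authors' deposited table gives log2 fold changes, adjusted p-values, product names and the position of a coding segment, whose build is not named. Linkage groups were taken from the RefSeq table of S_indicum_v1.0, in which all 25762 identifiers matched.

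The test was that of edgeR 4.0.16 under R 4.3.3 (robust quasi-likelihood test, TMM scaling, filterByExpr), as SiCD_B minus SiCD_A without covariates. The SE is the log2 fold change divided by the square root of F. A count of 0 allows up to 3 counts, or 0.0365 to 0.0535 CPM by pool, for counting error only. Likeness used log2(CPM + 0.5). Alternatives were other scalings and filters, DESeq2 1.42.0, limma-voom with limma 3.58.1, the pool number as a block and leaving out each pool. No pool repeated another, since counts within a group differed by more than sampling noise (5.24 to 29.7 in chi-square over degrees of freedom). On simulated data for this contrast over 21009 genes, the fit recovered 70% of genes changed 1.5-fold, 76% at 2-fold and 96% at 4-fold, and 19 of 188 calls were unchanged genes. The members, lists, gene pairs and named genes were chosen with earlier results of these data known. Every WOX and JAGGED-like gene is named, and of each pathway list up to 3 genes of smallest p. TOPLESS, PTL, and further BAM and kinase inhibitor genes were added. Figures were drawn with matplotlib 3.10.9.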

Additional observations from a re-analysis of the deposited data

How the results depend on the processing

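Over 14 alternatives, the number of WOX and JAGGED-like genes called was 6 or 7, and the 6 that rose were called higher in all of them. The log2 fold change of WOX1 ranged from 1.54 to 1.64, that of the JAGGED-like gene LOC105160902 from 2.22 to 2.69 and that of WOX1-like from 1.05 to 1.33. WOX8 passed in 8 of 14 alternatives, with a log2 fold change of -0.29 to -0.18, and the cause of the losses was not tested. The 2 genes that did not pass were called in 0 alternatives, and LOC105170355 was not tested under the filter of 1 CPM in 3 pools. Leaving out each pool in turn gave 6 to 7 calls among these genes, 13 to 17 among the pathway genes and 3919 to 5998 over all genes, where the lowest was without SiCD_B pool 2.

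Pool numbers are shared between the groups, but the same-numbered pools correlated at 0.128, 0.0619 and 0.160 in their deviations from the group means, and not every value was over 0.1, so the numbers were not taken to pair the pools. Each pool correlated best with its own number, as a hint from the data. With pool number as a block, 7 of the WOX and JAGGED-like genes, 21 pathway genes and 7181 of all genes were called, and 13 photosynthesis genes were lower. Depth limits the WOX3-like gene LOC105170355, which had 5 to 32 counts per pool.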
